A study of Mus musculus with 10 samples.

Results

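The albumin gene family of the mouse has 4 members expressed in liver, namely Alb (albumin), Afp (alpha-fetoprotein), Afm (afamin) and Gc (the vitamin D binding protein). They were chosen as the rows of the count table that map to these 4 genes, out of 55401 genes in all, and all 4 passed the low-count filter. Their RNA was measured in livers of female E18.5 fetuses, shortly before birth. The comparison was between 5 Mir483Pat-KO fetuses and 5 wild-type (WT) littermates. Mir483Pat-KO fetuses inherited a deletion of the microRNA gene Mir483 from their father. Mir483 lies in an intron of the imprinted gene Igf2 and is expressed from the paternal copy, so that the remaining maternal copy is largely silent. The allele was made in C57BL/6N embryonic stem cells, with the selection cassette removed by Cre in culture, and mice from 2 independent clones were crossed onto C57BL/6J. The deletion is present in every tissue, and the labels do not say from which clone or litter a fetus came.

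The family descends from duplications of 1 ancestral gene, and its products are carrier proteins that hepatocytes secrete into plasma. Albumin carries fatty acids, hormones and drugs and sets the oncotic pressure of plasma, alpha-fetoprotein is its main counterpart before birth, afamin binds vitamin E, and the product of Gc carries vitamin D metabolites and scavenges actin. As hepatocytes mature, Alb rises and is kept on for life, while Afp is shut down in the weeks after birth, so the ratio of Afp to Alb RNA is a common readout of liver maturation. The comparison therefore asks where livers without Mir483 stand on that scale at E18.5.

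All 4 genes lie on chromosome 5 (GRCm38). Alb (ENSMUSG00000029368) spans chr5:90460897-90476602, Afp (ENSMUSG00000054932) chr5:90490737-90508907 and Afm (ENSMUSG00000029369) chr5:90518932-90553543, all on the plus strand and in this order. The gap from Alb to Afp is 14.1 kb and that from Afp to Afm is 10 kb. Gc (ENSMUSG00000035540) lies apart from this cluster at chr5:89417522-89457898 on the minus strand, 1003 kb before Alb. Of all 50-base stretches in the annotated transcripts of the members, the length of 1 sequenced end, 0 occurred in the transcripts of any other gene. Only Afm had exonic sequence under another gene, 3.55% of its exons, on the opposite strand.

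The products of the deleted gene were set against the members' transcripts, since a microRNA acts mainly through sites that pair with its seed, bases 2 to 8. The mature sequences of both arms are shown from RefSeq (GRCm38.p6, chr7:142654932-142654952 and chr7:142654968-142654989, minus strand), with the seed in capitals.
miR-483-3p: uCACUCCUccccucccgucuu
miR-483-5p: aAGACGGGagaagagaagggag
The matching 7-mer of miR-483-3p, AGGAGTG, occurs in the longest annotated 3′ untranslated region (UTR) of 11.7% of 21160 genes, and that of miR-483-5p, CCCGTCT, in 2.99%. Alb, Afp and Gc held neither 7-mer in any annotated 3′ UTR, the longest of which has 169 bases in Alb, 201 in Afp and 190 in Gc. Afm held 1 match to miR-483-3p, and only in a 10-exon transcript whose 3′ UTR of 1129 bases ends the message early. It starts at base 348 of that UTR (chr5:90548276-90548282), outside every exon of the 15-exon Afm transcript, and is shown with 8 bases on either side, the match in capitals.
Afm, 3′ UTR of the 10-exon transcript: ggtagctcAGGAGTGaagccagt

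The promoters of the members are shown because they share a motif. GTTAAT, a motif known from promoters of liver genes, is set in capitals on either strand (as ATTAAC on the minus strand) in up to 140 bases before the RefSeq start, GRCm38.p6, 5′ to 3′ in the direction of the gene. The windows are chr5:90460730-90460869 for Alb, chr5:90490574-90490713 for Afp and chr5:90518809-90518931 for Afm on the plus strand, and chr5:89457899-89458038 for Gc on the minus strand. The window of Afm has 123 bases because the last 17 before its RefSeq start lie inside the annotated gene.
Alb: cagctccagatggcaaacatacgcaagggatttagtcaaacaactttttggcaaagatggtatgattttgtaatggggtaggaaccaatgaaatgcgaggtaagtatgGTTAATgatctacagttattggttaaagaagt
Afp: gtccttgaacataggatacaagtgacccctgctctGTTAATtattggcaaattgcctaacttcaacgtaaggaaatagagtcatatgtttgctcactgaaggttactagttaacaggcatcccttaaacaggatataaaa
Afm: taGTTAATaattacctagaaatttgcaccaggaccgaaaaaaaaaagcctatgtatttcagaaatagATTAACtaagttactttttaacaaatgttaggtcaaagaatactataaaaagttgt
Gc: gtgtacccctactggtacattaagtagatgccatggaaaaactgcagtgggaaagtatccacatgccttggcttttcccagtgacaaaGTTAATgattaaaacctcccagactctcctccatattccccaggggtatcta
A GTTAAT match lay 32 bases before the RefSeq start of Alb, 105 bases before that of Afp and 52 before that of Gc. Afm held 2, at 138 and 73 bases. The gene starts given above for Alb and Afp lie downstream of their RefSeq starts, so the matches lie farther from those. At least 1 match on either strand within 250 bases was present in all 4 members and in 6.52% of 27025 mouse promoters. CCAAT, the core of the CCAAT box, was present in all 4 and in 34.5% of promoters. TATAAA was present in Afp and Afm and in 13% of promoters, and CAAAGTCCA, a site of HNF4, in none of the 4 and in 0.381% of promoters. These are matches of letters and not measured binding.

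The libraries held 10831350 to 14765880 counts each, and their scaling factors lay between 0.973 and 1.031. Mir483 had 10 to 22 counts in the WT libraries and 0 in each Mir483Pat-KO library, where 0 allows up to 3 counts per library (counting error only). Of the 14098 genes tested, 731 passed an adjusted p of 0.05 (5.19%), 389 of them lower (2.76%) and 342 higher (2.43%) in Mir483Pat-KO livers, and for 931 genes (6.6%) the 2 groups of libraries did not overlap. The number passing depends on single libraries, and fell to 192 lower and 87 higher without Mir483Pat-KO replicate 4. The fetuses carry identification numbers in 2 ranges, the lower one with 4 WT and 2 Mir483Pat-KO fetuses (replicates 1 and 2), the upper one with 1 WT (replicate 5) and 3 Mir483Pat-KO fetuses. The labels do not say what the ranges stand for.

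Alb was the most abundant transcript of these livers and took 12.3% ± 0.520 of all counts in WT (SD, n = 5) and 11.1% ± 0.719 in Mir483Pat-KO. Afp took 2.81% ± 0.237 and 3.12% ± 0.294, Gc 0.264% and 0.243%, and Afm 0.0101% and 0.00979%. Together the 4 members made up 15.4% ± 0.482 of a WT library and 14.5% ± 0.885 of a Mir483Pat-KO library. The ranges overlapped, with WT livers between 14.7 and 16.0% and Mir483Pat-KO livers between 13.7 and 15.7%. Set per length of exon, the WT levels were 53186 ± 2906 CPM per kb for Alb (CPM being counts scaled to a common library size), 8456 ± 743 for Afp, 1453 ± 43.3 for Gc and 33.7 ± 1.44 for Afm (SD, n = 5). Neighbours in this order differed far beyond their spread, with Alb 6.29-fold above Afp, Afp 5.82-fold above Gc and Gc 43.1-fold above Afm. Taking the length of the longest transcript in place of all exons changed these steps to 4.44, 9.27 and 35.8-fold and left the order as it was. Per kb, Alb ranked first among all genes, Afp came next after Trf (transferrin), Ahsg (fetuin-A) and Hbb-bs (adult beta globin), Gc at position 26 and Afm at position 1021.

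None of the 4 members passed the test between genotypes in edgeR's quasi-likelihood fit, against 5.19% of all genes. At an unadjusted p under 0.05 there were 2 of 4, Alb and Gc, as there were 3128 of all 14098 genes. DESeq2 passed 1 member, Gc, where it passed 8.28% of all genes, and limma-voom passed 0, against 5.34% of all genes. For all 4 members the ranges of the groups overlapped.

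Alb stood at 125051, 133394, 119862, 116159 and 128343 CPM in WT replicates 1 to 5, and at 123287, 113774, 107325, 101281 and 103586 CPM in Mir483Pat-KO replicates 1 to 5. Replicate 1 of Mir483Pat-KO lay within the WT range and the other 4 lay below all WT livers. WT livers averaged 124562 ± 6805 CPM and Mir483Pat-KO livers 109850 ± 8874 CPM (SD, n = 5). The log2 fold change was −0.18 with an SE of 0.0793 and a 95% interval from −0.349 to −0.0134, and its adjusted p was 0.190 in edgeR.

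Afp stood at 25783, 29049, 32406, 27129.6 and 28024 CPM in WT replicates 1 to 5, and at 33391, 33181, 26108, 31768 and 30081 CPM in those of Mir483Pat-KO. Mir483Pat-KO replicates 1 and 2 exceeded every WT liver, while replicate 3 lay below all but 1 of them. WT livers averaged 28478 ± 2502 CPM and Mir483Pat-KO livers 30906 ± 2992 CPM (SD, n = 5). The log2 fold change was 0.12 with an SE of 0.0871 and a 95% interval from −0.066 to 0.302, and its adjusted p was 0.454 in edgeR. Afp was thus the 1 member with a positive log2 fold change, and its interval includes 0.

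Gc stood at 2754, 2552, 2664, 2703 and 2731 CPM in WT and at 2600.1, 2387, 2419.8, 2418 and 2221 CPM in Mir483Pat-KO. It varied least of the 4 in WT, with a coefficient of variation of 2.98%, and 4 of the 5 Mir483Pat-KO livers lay below all WT livers. The means of 2681 ± 79.8 and 2409 ± 135 CPM (SD, n = 5) gave a log2 fold change of −0.15 with an SE of 0.0657, a 95% interval from −0.293 to −0.0152 and an adjusted p of 0.179 in edgeR. DESeq2 gave −0.16 with an adjusted p of 0.0438.

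Afm, the least abundant member, stood at 109.4, 98.1, 99.8, 104 and 101 CPM in WT and at 109.8, 96.9, 92.2, 94.6 and 91.3 CPM in Mir483Pat-KO. Replicate 1 of Mir483Pat-KO was the highest of all 10 livers and the other 4 of that group were the lowest. The means were 102 ± 4.38 and 96.9 ± 7.49 CPM (SD, n = 5), with a log2 fold change of −0.08, an SE of 0.0668, a 95% interval from −0.221 to 0.062 and an adjusted p of 0.517 in edgeR. Its direction turned under 2 alternatives, to 0.058 when libraries were scaled to other plasma protein genes and to 0.006 within the lower identification number range. In bulk liver, a different share of hepatocytes and a different RNA level per hepatocyte cannot be told apart for any of the 4.

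**Figure D1:**
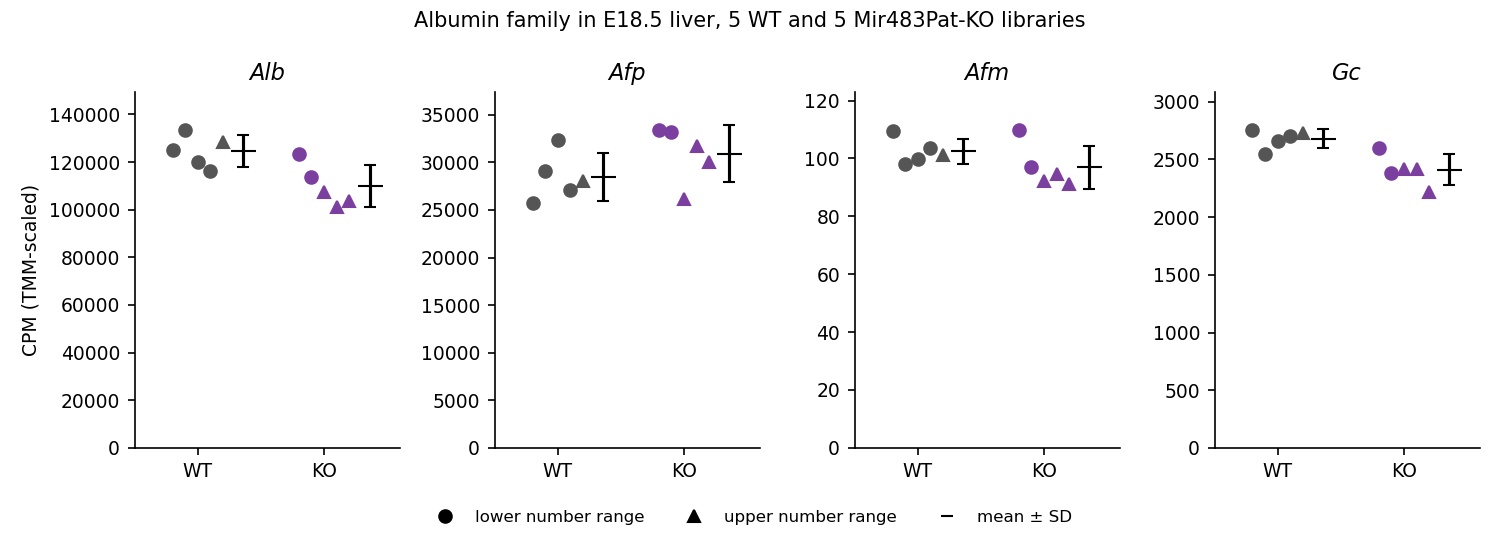
CPM of the 4 members in each library, 1 panel a gene with its own axis from 0, WT in grey and Mir483Pat-KO in purple, circles and triangles for the lower and upper identification number ranges, and bars for the mean ± SD (n = 5). The groups overlap in every panel, with 4 of 5 Mir483Pat-KO livers below all WT livers for Alb, Afm and Gc and 2 of 5 above them for Afp.

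The ratio of Afp to Alb needs no scaling between libraries, since both counts come from the same library. There were 20.6, 21.8, 27.04, 23.4 and 21.8 Afp counts per 100 Alb counts in WT replicates 1 to 5, and 27.08, 29.2, 24.3, 31.4 and 29.0 in Mir483Pat-KO replicates 1 to 5. The ratio was higher in 4 of 5 Mir483Pat-KO livers than in every WT liver. The lowest of these 4 exceeded the highest WT value by little, and replicate 3 of Mir483Pat-KO lay inside the WT range. The means were 28.2 ± 2.64 for Mir483Pat-KO against 22.9 ± 2.5 for WT (SD, n = 5). The mean log2 ratio was higher by 0.30 in Mir483Pat-KO, or 1.23-fold, with a 95% interval of 1.06 to 1.42-fold from inverting the test. The two-sided exact permutation test over all 252 arrangements of the libraries gave p = 0.0159, where the smallest p it can give is 0.00794. The ratio was chosen with earlier results of these data known, and its p-values are not adjusted for that choice. Leaving out any 1 library kept the log2 difference between 0.26 and 0.36 and the exact p between 0.0159 and 0.0317.

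The 2 parts of the ratio did not contribute alike in all fetuses. In Mir483Pat-KO replicates 1 and 2 Afp was at its highest, 33391 and 33181 CPM, while Alb was at 123287 and 113774 CPM, the highest values of that group. In replicates 4 and 5 Alb was at its lowest, 101281 and 103586 CPM, with Afp at 31768 and 30081 CPM. In replicate 3 both were low, Alb at 107325 and Afp at 26108 CPM, and its ratio of 24.3 per 100 was the lowest of the group. Across the 10 libraries, after subtracting each group's mean, log2 CPM of Alb and Afp had a Pearson correlation of 0.26, given as a description since all values of a library share its scaling.

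**Figure D2:**
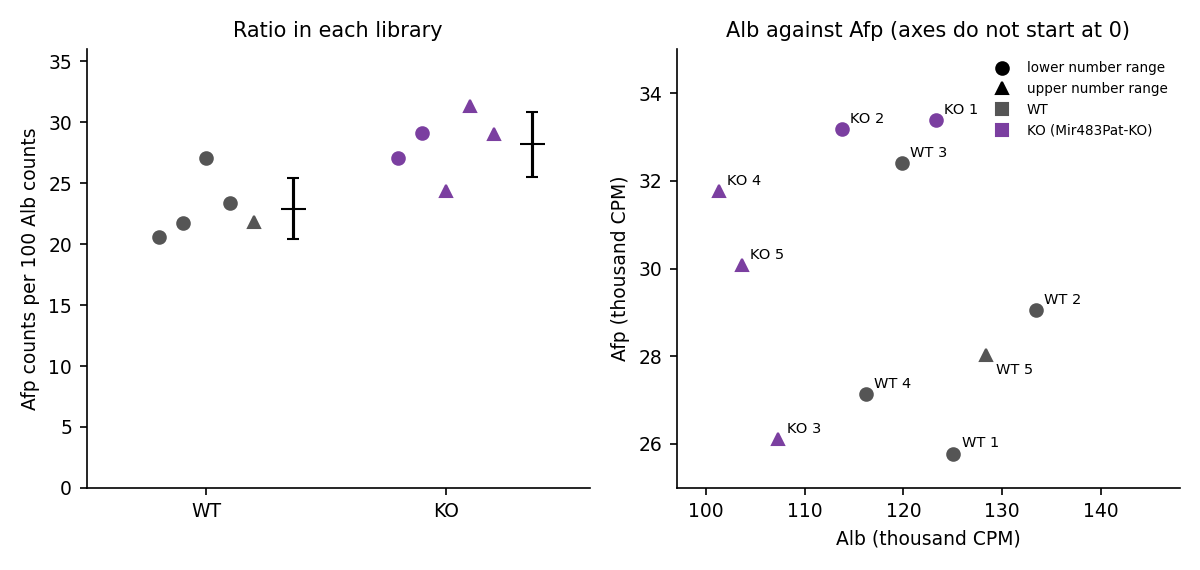
Left, Afp counts per 100 Alb counts in each library with the mean ± SD (n = 5 per group); right, CPM of Alb against CPM of Afp for the same libraries, on axes that do not start at 0. The Mir483Pat-KO livers (KO, purple) average 28.2 per 100 against 22.9 in WT (grey), replicates 2 to 5 lie to the left of all WT livers, and replicates 1 and 2 above them.

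The other ratios between members were not tested and are given as values. Gc stood at 2.16 ± 0.155 counts per 100 Alb counts in WT and 2.20 ± 0.123 in Mir483Pat-KO, a log2 difference of 0.028. The 2 genes thus kept nearly the same proportion while both had lower means. Gc per 100 Afp counts was 9.48 ± 0.978 in WT and 7.85 ± 0.825 in Mir483Pat-KO, with 4 of 5 Mir483Pat-KO livers below all WT livers. Afm per 100 Gc counts was 3.82 ± 0.102 and 4.02 ± 0.163, a log2 difference of 0.074. Afm and Gc, the 2 less abundant members, also varied together from library to library, with a correlation of 0.83 after subtracting group means over 10 libraries, and each stood at position 25 of 12549 genes in likeness to the other. Alb and Gc had a correlation of 0.40, Alb and Afm 0.55, Afp and Afm 0.17 and Afp and Gc 0.046.

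Within the lower identification number range, the 4 WT livers averaged 123616 CPM of Alb and the 2 Mir483Pat-KO livers 118530 CPM, and the 2 ranges overlapped. Afp averaged 28592 and 33286 CPM there, with both Mir483Pat-KO livers above all 4 WT livers. The Afp count per 100 Alb counts was 23.2 in WT, from 20.6 to 27.04, and 28.1 in Mir483Pat-KO, 27.08 and 29.2. In the upper range, the 1 WT liver had 128343 CPM of Alb and the 3 Mir483Pat-KO livers 101281 to 107325 CPM. Afp was 28024 CPM in that WT liver and averaged 29319 CPM in the 3 Mir483Pat-KO livers, and the ratio was 21.8 against 24.3 to 31.4. The mean ratio was thus higher in Mir483Pat-KO in both ranges. Most of the difference in Alb lay in the upper range, which holds only 1 WT liver. The exact permutation test of the log2 ratio with arrangements kept within the ranges gave p = 0.0333 for a difference of 0.31. Within the lower range alone the difference was 0.28, with an exact permutation p of 0.133, where no p under 0.0667 is possible.

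Members were also set against the summed counts of 26 other abundant plasma protein genes. These are a chosen list, in which Trf and Ahsg stood highest, at 51389 and 31186 CPM in WT. Per 100 such counts, Alb had 73.1 ± 3.58 for WT against 70.9 ± 3.10 for Mir483Pat-KO, and Gc at 1.57 ± 0.0790 and 1.56 ± 0.0627 (SD, n = 5). Neither difference exceeded the SD of a group. Afp stood at 15.2, 17.1, 19.6, 16.6 and 15.1 in WT replicates 1 to 5 and at 20.5, 21.1, 17.0, 21.4 and 19.9 in those of Mir483Pat-KO. Here too 4 Mir483Pat-KO livers exceeded every WT liver and replicate 3 did not. With libraries scaled to these 26 genes, the log2 fold change was −0.04 for Alb, −0.015 for Gc, 0.058 for Afm and 0.26 for Afp, the last with an adjusted p of 0.0505 in edgeR. This scaling moved the median of all genes from 0.0042 to 0.145 on the log2 scale, so Afp stood 0.11 above that median, and Alb, Gc and Afm stood below it. Offsets for GC content and length gave 0.063 for Afp and −0.21 for Alb, with the Afp to Alb difference at 0.27.

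**Figure D3:**
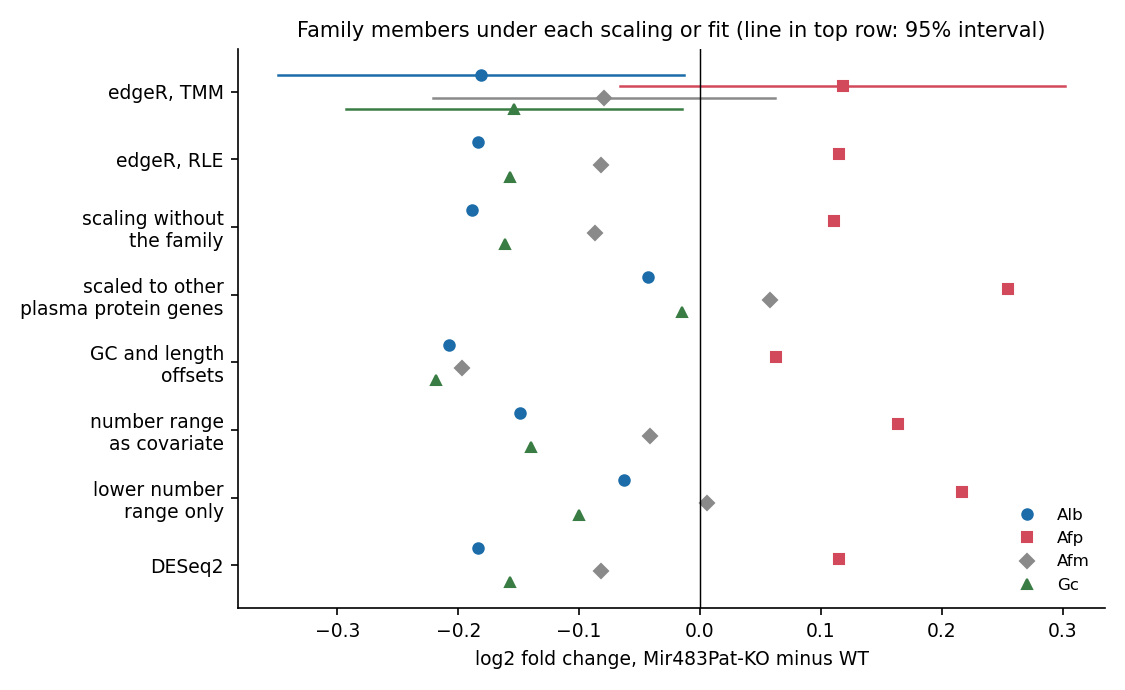
Log2 fold change of each member, Mir483Pat-KO minus WT, under 8 scalings or fits, with the 95% interval drawn as a line for the first. Afp lies above 0 and Alb and Gc below 0 in all 8, Afm changes side in 2, and Alb and Gc come close to 0 when scaled to other plasma protein genes.

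The 26 other plasma protein genes themselves had a median log2 fold change of −0.18, against 0.0042 over all genes, and that of Alb was −0.18. In 25 of the 26 it was negative, 6 passed as lower and 0 as higher. The 2 of smallest p were Rbp4, which carries retinol, at −0.41 (adjusted p = 0.00580, edgeR) and Hrg, a heparin-binding plasma glycoprotein, at −0.59 (adjusted p = 0.0103, edgeR). The count of 6 fell to 2 without WT replicate 5, Mir483Pat-KO replicate 4 or Mir483Pat-KO replicate 5, to 2 under the scaling to these genes and to 2 with GC content and length offsets. It fell to 3 without WT replicate 4, Mir483Pat-KO replicate 2 or Mir483Pat-KO replicate 3. DESeq2 passed 11 of the 26 as lower and limma-voom 8.

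Other genes known to rise in hepatocytes around birth formed a list of 24, of which 20 were expressed enough to test. Only E18.5 was measured, so the course of these genes or of Alb was not seen here. Of these, 9 passed as lower and 0 as higher, and the median log2 fold change was −0.33. Abcb11, the bile salt export pump, went from 295 ± 45.8 to 180 ± 28.6 CPM (log2 fold change −0.71, adjusted p = 0.00380, edgeR). Cyp27a1, a mitochondrial hydroxylase of bile acid and vitamin D metabolism, fell by 0.66 on the log2 scale (adjusted p = 0.00384, edgeR). With each library left out in turn, 6 to 10 of the 20 passed as lower, and 5 did under the scaling to plasma protein genes.

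Other genes that fetal liver expresses and adult liver is known to silence formed a list of 14. Of these, 3 passed as higher and 0 as lower, and the median log2 fold change was 0.040. Spink1, a trypsin inhibitor, rose by 0.71 (adjusted p = 0.0144, edgeR), Cd24a, a surface glycoprotein of immature cells, by 0.43 (adjusted p = 0.0161, edgeR) and Lin28b, which blocks let-7 microRNAs, by 0.50 (adjusted p = 0.0333, edgeR). Lin28b was named after its values were seen. Without Mir483Pat-KO replicate 4 only 1 of the 14 passed. H19, the most abundant gene of this list and named after its values were seen, averaged 17637 ± 949 CPM for WT and 17861 ± 767 CPM for Mir483Pat-KO, and its log2 fold change of 0.018 had an adjusted p of 0.910 in edgeR.

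**Figure D4:**
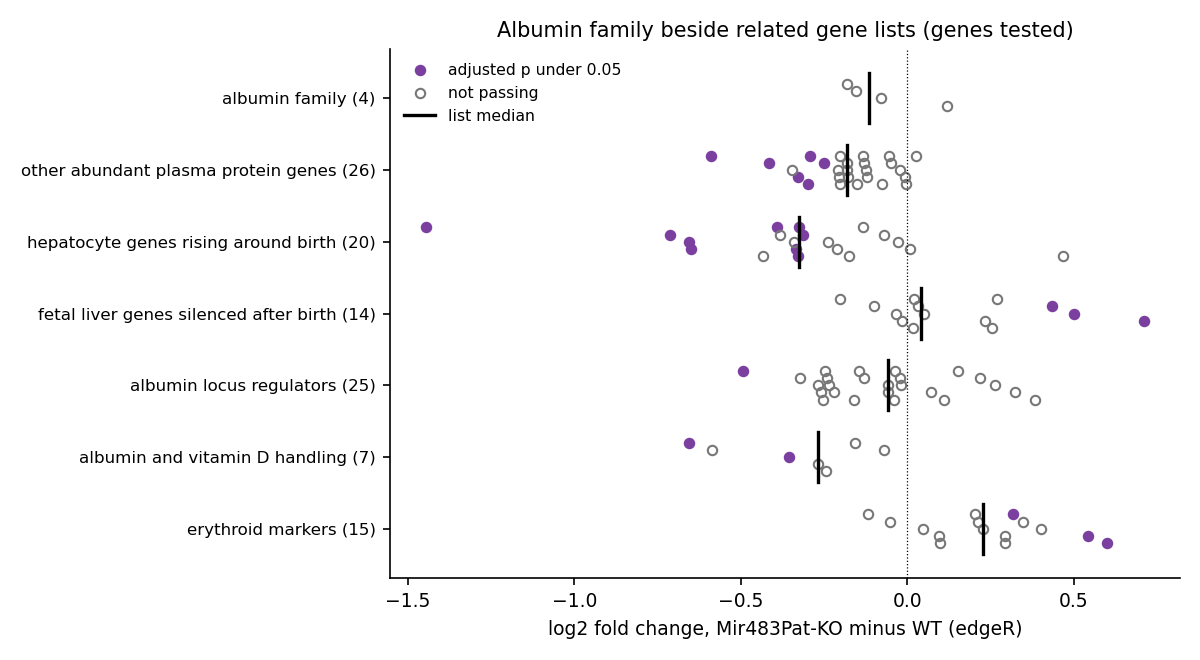
Log2 fold change of each tested gene, Mir483Pat-KO minus WT, for the albumin family and 6 gene lists, filled where the adjusted p is under 0.05 in edgeR, with list medians as vertical bars. The family holds no filled point. Its median of −0.12 lies between that of other plasma protein genes at −0.18 and that of fetal genes at 0.040.

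Transcription factors known to act on the albumin locus formed a list of 25, of which 1 passed as lower and 0 as higher, with a median log2 fold change of −0.059. Foxa2, which opens liver enhancers, fell from 17.7 ± 2.01 to 12.6 ± 1.81 CPM (log2 fold change −0.49, adjusted p = 0.0201, edgeR). Hnf4a, a nuclear receptor that maintains hepatocyte identity, had a log2 fold change of −0.24 with groups that did not overlap and an adjusted p of 0.0540 in edgeR. Zbtb20 and Zhx2, 2 known silencers of Afp after birth, were named after their values were seen. Zbtb20 stood at 39.2 ± 8.84 CPM for WT and 49.0 ± 5.63 CPM for Mir483Pat-KO (adjusted p = 0.131, edgeR) and Zhx2 at 4.15 ± 0.659 and 4.82 ± 0.438 CPM (adjusted p = 0.408, edgeR). The counts depend on the setting. With GC content and length offsets 0 genes of this list passed as lower, Foxa2 included, and under the scaling to plasma protein genes 0 passed as lower and 3 as higher. With the identification number range as a covariate 4 passed as lower and 1 as higher, DESeq2 passed 3 as lower, and edgeR passed 3 as lower without WT replicate 1, 2 as lower without Mir483Pat-KO replicate 1 and 2 as higher without WT replicate 2.

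Genes that handle albumin and vitamin D formed a list of 12, of which 7 could be tested. Of these, 2 passed as lower, with a median log2 fold change of −0.27, and 0 as higher. They were Cyp27a1, given above, and Fcgrt, the heavy chain of the receptor that returns albumin and IgG to plasma, which fell by 0.36 on the log2 scale (adjusted p = 0.0198, edgeR). Without Mir483Pat-KO replicate 2 or 4 only 1 of the 7 passed. Of the kidney uptake receptor genes on the list, Lrp2 was tested, with a log2 fold change of −0.59 (adjusted p = 0.260, edgeR). Cubn and Amn and the vitamin D genes Cyp27b1, Cyp24a1 and Vdr were too low to test, with at most 22 counts in any library.

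Markers of other cell types moved with genotype in part. Fetal liver still forms red cells, and of 15 erythroid markers 3 passed as higher, among them Hbb-bs at 0.54 and, named after its values were seen, Rhag at 0.32, with a median of 0.23. The summed level of the erythroid list lay between 17802 and 22702 CPM for WT and between 20861 and 28830 CPM for Mir483Pat-KO. Under the scaling to plasma protein genes 9 of the 15 passed as higher, where 1760 of all genes did, against 342 in the main fit. In the main fit without Mir483Pat-KO replicate 1, 5 of the 15 passed as higher. Ahsp, listed as a marker, was not analysed here. Of 11 macrophage markers 2 passed as lower, C1qa at −0.29 and Clec4f at −0.46, while the median of the list was −0.15 and 4 of the 11 had positive values, from 0.080 in Vsig4 to 0.24 in Timd4, both named after their values were seen. The summed level of the list lay between 751 and 924 CPM for WT and between 629 and 820 CPM for Mir483Pat-KO. The macrophage count fell to 0 without any 1 of WT replicates 4 and 5 and Mir483Pat-KO replicates 2, 4 and 5, and under the scaling to plasma protein genes, and to 1 without replicate 1 of either group. In edgeR, 0 passed among 10 neutrophil, 9 endothelial, 10 stellate, 6 bile duct and 7 megakaryocyte markers. At an unadjusted p under 0.05 there were 1, 2, 5, 0 and 0 of these, and DESeq2 passed 2 stellate markers and 0 of the others. In edgeR 4 stellate markers passed as lower without WT replicate 1. There were 2 when Mir483Pat-KO replicate 1 was left out and 5 with no low-count filter. The summed levels of these 5 lists overlapped between the groups, and the stellate list had a median of −0.39, with Pdgfrb at −0.48 (adjusted p = 0.0511, edgeR) and Reln at −0.40 (adjusted p = 0.0664, edgeR) of smallest p. The yolk sac is the other fetal source of Afp. Of its 6 markers, Rhox5, Cubn, Amn and Slc13a4 were too low to test and stood at 1.57 CPM or less in every library. The list's 1 passing gene, Spink1, is also in the fetal liver list. The other tested marker, Lrp2, had a log2 fold change of −0.59 and did not pass (adjusted p = 0.260, edgeR). The part of these cell types in the values of the 4 members was not tested. Within the lower identification number range alone, where 3 genes passed as higher and 20 as lower among all genes, 0 genes of any list passed.

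Genes around the members did not pass in edgeR, and they are too few to tell this from the share of all genes. Within 500 kb of Alb there were 24 other annotated genes, of which 9 were expressed enough to test, the same 9 as around Afp and Afm. In edgeR 0 of the 9 passed, against 5.19% of all genes, and 1 had an unadjusted p under 0.05. DESeq2 passed 1, against 8.28% of all genes, and limma-voom 0, against 5.34%. The 2 of smallest p were Cxcl1, a chemokine, at a log2 fold change of 0.87 (adjusted p = 0.0823, edgeR) and 5830473C10Rik at 0.17 (adjusted p = 0.417, edgeR). Around Gc 2 of 7 genes were tested, Slc4a4, a bicarbonate transporter, at −0.31 (adjusted p = 0.139, edgeR) and Adamts3, a procollagen protease, at −0.26 (adjusted p = 0.411, edgeR). Of these 2, 1 had an unadjusted p under 0.05, and 0 passed in DESeq2 and limma-voom.

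The genes whose log2 CPM followed a member most closely, after subtracting group means over the 10 libraries, were ranked among 12549 genes. For Alb they were Tpgs2 at a Pearson correlation of 0.94, Sod2 at 0.92 and Setd2 at 0.92. For Afp they were Rnf6 at 0.98, Trmt1l at 0.93 and Trib2 at 0.91. The nearest genes to Alb and to Afp were thus different ones, and none was another member, with Afp at position 3340 in likeness to Alb. With 10 libraries and this many genes, these correlations are a description.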

How the data were processed

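Liver polyA RNA of 10 female E18.5 mouse fetuses was sequenced by the authors as stranded libraries with paired 50-base ends, aligned with STAR to GRCm38 and counted per gene. The authors deposited raw counts per Ensembl gene, with no normalization. The strand setting of the counting and the treatment of reads that map to several places are not given in the sources used here. Groups came from the sample labels, which describe the fetuses as biological replicates. Libraries of a group differed beyond sampling noise in every pair.

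The count table was fitted with edgeR 4.0.16 under R 4.3.3 (filterByExpr, TMM, quasi-likelihood F-test, no covariates), adjusted by Benjamini-Hochberg over 14098 genes. A gene passed at an adjusted p under 0.05. CPM values use TMM-scaled library sizes. The Afp to Alb ratio was tested on log2 by a two-sided exact permutation test over libraries, with its 95% interval from inverting that test. The edgeR fit was tested on simulated data. Members and gene lists, the ratio included, were chosen with earlier results of these data known. Named were the 4 members, the 2 genes of smallest p of each list and around each member (the neutrophil, endothelial, bile duct and megakaryocyte lists, with none passing, are given as counts, and some listed genes are not reported here), and the 3 genes most like Alb and Afp. Of 55401 genes 55141 matched a GENCODE M21 symbol. Exons and UTRs came from GENCODE M21, and microRNA and promoter sequences from RefSeq (GRCm38.p6). Alternatives were other scalings and tests (DESeq2 1.42.0, limma-voom 3.58.1, a robust fit), other low-count filters, GC content and length offsets, the identification number range, the replicate number and leaving out each library. Counting error is small at these depths, so the spread between fetuses limits the precision.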

Additional observations from a re-analysis of the deposited data

Results flagged for a closer look

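Gc per 100 Afp counts stood at 9.27 in Mir483Pat-KO replicate 3, away from the other 4 livers of that group, which lay between 7.19 and 7.79. Its gap to the nearest of them exceeded Dixon's 95% limit for a group of 5. The same library had the lowest Afp level of the group, 26108 CPM, and a Gc level of 2419.8 CPM among those of the others. Of 20 groups of values examined this was the only one set apart, and chance sets apart about 1 in 20.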

How the results depend on the processing

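The direction of Alb, Afp and Gc held under all 22 alternatives, from −0.23 to −0.043 for Alb, from 0.063 to 0.26 for Afp and from −0.22 to −0.015 for Gc on the log2 scale. Adjusted p ranged from 0.0656 to 0.788 for Alb, 0.0505 to 0.747 for Afp, 0.102 to 0.983 for Afm and 0.0438 to 0.904 for Gc, and 1 member passed under 1 alternative, Gc in DESeq2 (−0.157, adjusted p = 0.0438). Afm turned to 0.058 when scaled to other plasma protein genes and to 0.00604 in the lower identification number range only. Over the leave-one-out fits Alb ranged from −0.234 to −0.16, Afp from 0.0775 to 0.163, Afm from −0.136 to −0.0622 and Gc from −0.191 to −0.134. The Afp to Alb log2 difference ranged from 0.26 to 0.361 over all alternatives. Its exact p, which is not adjusted, was under 0.05 in every alternative tested but 2. These were the lower range only (0.284, exact permutation p = 0.133, smallest possible 0.0667) and the replicate block (0.2999, exact sign-flip p = 0.125, smallest possible 0.0625). Both have too few arrangements to reach 0.05, and both gave a p above their smallest possible.

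Genes passing as higher and lower numbered 342 and 389. They numbered 1760 and 183 when scaled to other plasma protein genes, 555 and 612 in DESeq2, 633 and 625 without a low-count filter, 742 and 596 with the replicate block and 3 and 20 in the lower range only, while the range as a covariate gave 646 and 543. Leaving out 1 library gave 87 to 389 higher and 192 to 475 lower. The cause of these shifts was not tested. Same-numbered WT and Mir483Pat-KO libraries showed no clear pairing. Their deviations from group means correlated at −0.0445 to 0.339, with a mean of 0.116 against −0.029 for other pairs. Of 5 WT libraries, 2 correlated best with their own number, and so few pairs cannot settle whether they pair. The block changed no call of a single member. Counting error is small for all 4 members, the lowest count of Afm being 1048, so the spread between 5 fetuses a group is the limit.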
